A study of Mus musculus with 24 samples.

Results

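Sensing of bacterial surface molecules in the mouse lung after birth was followed through 9 genes, *Lbp*, *Cd14*, *Ly96*, *Tlr4*, *Tlr2*, *Tlr1*, *Tlr6*, *Myd88* and *Irak3*. They were taken by gene symbol from tables of 23420 genes each, all 9 were found in every table, and all 9 passed the filter on low values in the 4 comparisons. The tables hold whole left lung lobes of mice in which the planar cell polarity gene *Vangl2* or the receptor tyrosine kinase gene *Ror2* was floxed and a *Sox9* Cre driver was present, together with control lungs. Cre was expressed from the *Sox9* locus, which is active in the distal lung epithelium, so deletion was aimed at the epithelium, while whole lobes with their mesenchyme, vessels and immune cells were sequenced.

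There were 24 lungs in 8 groups of 3. At postnatal day 2 (P2) and again at postnatal day 5 (P5), lungs entitled Sox9Cre; Vangl2f/f were set against their own controls, and lungs entitled Sox9Cre; Ror2f/f against another set of controls. The genotype of every control is given as WT, and both mutant lines carried 1 Cre allele (Sox9Cre/+). For *Vangl2* mutants at P5, and for *Ror2* mutants at P2, the genotype field disagrees with the title on which gene was floxed, and the titles were followed. The labels number the lungs of a group from 1 to 3 and do not say whether littermates were used, so p-values measure the spread between these lungs.

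Lipopolysaccharide (LPS), the outer membrane lipid of Gram-negative bacteria, is picked up by the plasma protein LBP and handed to CD14, a membrane-anchored or soluble protein without a signalling tail. CD14 passes it to MD-2, the product of *Ly96*, which sits on the receptor TLR4, while TLR2 paired with TLR1 or TLR6 recognises bacterial lipoproteins and also uses CD14. These receptors signal through the adaptor MYD88 to NF-kB, and IRAK3, also called IRAK-M, is an inactive kinase of monocytes and macrophages that restrains the signal. In the lung, CD14 and the Toll-like receptors are best known from macrophages, monocytes and neutrophils, and epithelial cells also carry several of them.

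Values are the authors' normalised counts, which are reads on a gene divided by a size factor of each lung. Whole reads could be recovered in 21 of the 24 lungs and ranged from 16178031 to 21546673 on genes, except in control lung 1 of the P5 *Ror2* comparison. That lung held 13823693 reads and lacked reads on part of the genome, and its values on chromosomes 5 to 9 and X were set to missing, which leaves 2 controls there for *Tlr1*, *Tlr6* and *Myd88*. The lobes carried the markers of their tissue, with 8 of 8 alveolar type II markers tested in every comparison, while the globin gene *Hba-a2* was listed at 0 in all lungs. The targeted genes were lower without reaching the threshold. *Vangl2* was at 249, 302 and 281 in the P2 controls and at 241, 224 and 173 in the mutants (adjusted p = 0.241), and at P5 at 369, 314 and 292 against 169.5, 148 and 166 (adjusted p = 0.0604, or 0.0194 with lung number as a block). *Ror2* was at 451, 581 and 519.8 in the P2 controls and at 479, 349 and 366 in the P2 *Ror2* mutants (adjusted p = 0.25), and the P5 groups overlapped as well (adjusted p = 0.692). For the lungs whose labels disagree, the other gene gave no call either, with *Ror2* at 611, 478 and 487 in P5 *Vangl2* controls and at 541, 351 and 273 in the lungs entitled *Vangl2* mutants (adjusted p = 0.348), and *Vangl2* at 270.2, 291 and 245 in P2 *Ror2* controls and at 208, 251 and 236 in the lungs entitled *Ror2* mutants (adjusted p = 0.404).

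Sequence bears on how well the receptor genes can be told apart. *Tlr1* (chr5:64924679-64933563, minus strand) and *Tlr6* (chr5:64952031-64960097, minus strand) are neighbours, and in the GENCODE M21 transcripts of the GRCm38 build their longest identical run is 229 bases. It lies within the coding sequence of both genes, at chr5:64925537-64925765 in *Tlr1* and chr5:64953828-64954056 in *Tlr6*, and is shown because a read from it cannot be assigned to either gene.
Shared run of Tlr1 and Tlr6: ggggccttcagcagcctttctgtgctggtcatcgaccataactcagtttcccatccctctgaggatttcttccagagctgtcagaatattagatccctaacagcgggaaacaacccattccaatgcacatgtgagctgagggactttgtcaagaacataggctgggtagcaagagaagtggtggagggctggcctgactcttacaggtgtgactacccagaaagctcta
Of all 50-base windows, 15.3% of the longest *Tlr1* transcript and 12.5% of the longest *Tlr6* transcript are found in the other gene, so their counts are uncertain to the extent that shared reads were split or dropped. *Tlr2* shares no such window with *Tlr1*, *Tlr6* or *Tlr4*, and its longest run in common with any of them is 13 bases.

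In the P2 *Vangl2* mutants, *Lbp* and *Irak3* rose and *Cd14* and *Tlr2* lay higher in every mutant lung than in any control without passing by limma (on recovered reads DESeq2 called *Tlr2*). *Lbp*, which delivers LPS to CD14, was 1.79-fold and *Irak3* 2.12-fold higher by group means. *Tlr4*, *Ly96*, *Tlr1* and *Tlr6* had log2 differences between -0.36 and 0.23 with overlapping groups. Thus 2 of 9 members passed an adjusted p of 0.05 by limma, both higher, where 3.59% of 17448 genes tested passed and 1.5% passed as higher. An unadjusted p under 0.05 was reached by 4 of 9 members, against 22.5% of genes. The groups did not overlap for 4 of 9 members, all higher in mutants, against 14.6% of genes, and the median log2 difference was 0.62 for the members and 0.00 for all genes tested.

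*Lbp* (chr2:158306493-158332852, plus strand) was at 913, 958 and 941 in the P2 controls and at 1839.8, 1474 and 1725 in the *Vangl2* mutants. The controls were within a few percent of each other and every mutant lung stood well above them. The log2 difference was 0.84 (SE 0.11, n = 3 and 3, adjusted p = 0.0265). The call was lost without control lung 1, 2 or 3, with adjusted p of 0.0538, 0.162 and 0.136.

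*Irak3* (chr10:120141648-120202130, minus strand) was at 144, 138 and 144 in the P2 controls and at 331, 216 and 357 in the mutants. The lowest mutant lung was still clear of the tight control group. The log2 difference was 1.05 (SE 0.21, n = 3 and 3, adjusted p = 0.041). The call was lost when a control lung was left out (adjusted p of 0.115, 0.189 and 0.154 without lung 1, 2 and 3) or mutant lung 1 or 2 (0.0747 and 0.0633). Exons of *Irak3* overlap the spans of the genes *Gm47009* and *Tmbim4* on the other strand. Any reads they share cannot be told apart unless counting used strand.

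*Cd14* had the largest difference of the 9 members and also the largest spread. It was at 253, 270.3 and 290.2 in the P2 controls and at 676, 644 and 6372 in the *Vangl2* mutants, so the first 2 mutant lungs agreed and lung 3 stood far above both. The log2 difference was 2.37 (SE 0.78, adjusted p = 0.135). Without mutant lung 3 it was 1.28 and passed, with an adjusted p of 0.00979 by limma. In that fit 2333 of 17146 genes were called, against 626 with all lungs. Of 14 alternatives with an adjusted p for *Cd14*, it was the only 1 that passed.

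Mutant lung 3 stood apart in other members as well. *Tlr2* (chr3:83836272-83841767, minus strand) was at 224, 161 and 314 in controls and at 445, 376 and 1205 in mutants, with a log2 difference of 1.38 (SE 0.44, adjusted p = 0.123) that was 0.86 without lung 3. On recovered reads DESeq2, which called 1991 genes in this comparison, also called *Tlr2* (log2 1.53, adjusted p = 0.00577), while edgeR did not (1.52, adjusted p = 0.107). *Myd88* was at 947, 730.3 and 739 in controls and at 1024, 909 and 1999 in mutants, with a log2 difference of 0.62 (SE 0.28, adjusted p = 0.239) that was 0.27 without lung 3. *Lbp* was not highest in that lung, and *Tlr4*, *Ly96*, *Tlr1* and *Tlr6* lay within the range of the controls in it. Exons of *Myd88* (chr9:119335934-119341411, minus strand) overlap the spans of the genes *Slc22a14* and *Acaa1a*, so part of its count may belong to them. Whether exons of those genes overlap them was not examined.

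The LPS receptor proper and the partners of TLR2 gave no call at P2. *Tlr4* (chr4:66827584-66930284, plus strand) was at 293, 283 and 194 in controls and at 287, 306 and 255 in mutants. *Ly96* (chr1:16688051-16709611, plus strand), which encodes the LPS-binding partner of TLR4, was at 36.9, 60.7 and 50.8 in controls and at 53.7, 64.9 and 53 in mutants. Neither showed a difference beyond the spread between lungs, with log2 differences of 0.16 (SE 0.19) and 0.23 (SE 0.27). *Tlr1* ran from 18.2 to 45.5 in controls and from 20.7 to 31.6 in mutants, and *Tlr6* from 52.7 to 76.9 and from 57.9 to 73.3.

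**Figure D1:**
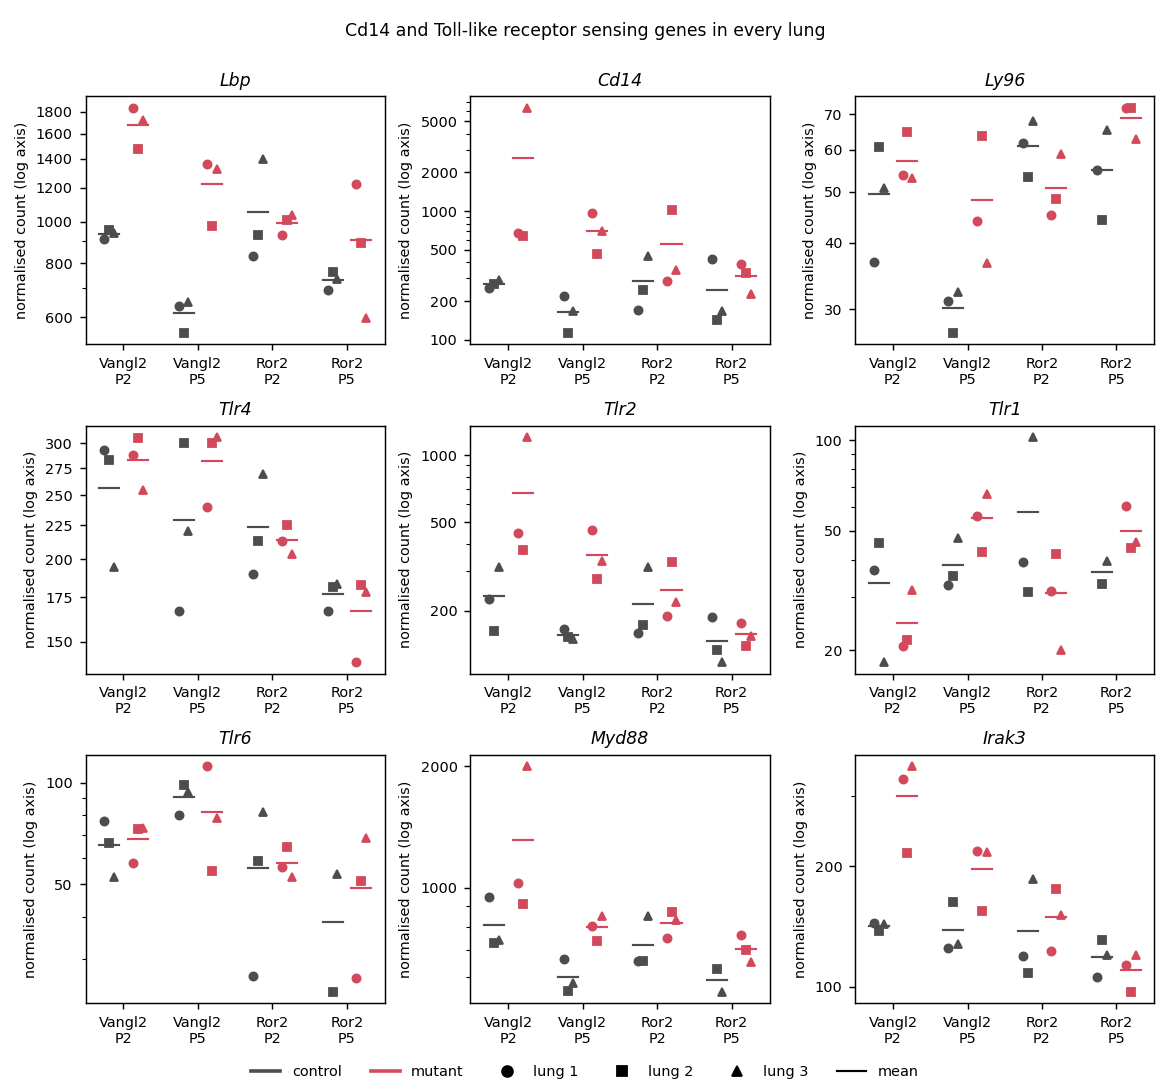
Normalised counts (log axes, each with its own range) of the 9 genes in every lung of the 4 comparisons, with controls in grey, mutants in red, the symbol giving the lung number and a bar at the group mean. Lbp, Cd14 and Tlr2 of both Vangl2 comparisons separate the groups, Cd14 of mutant lung 3 at P2 stands at 6372, and the Ror2 groups overlap for most genes. Tables were normalised separately, so heights are compared within a table, and control lung 1 of Ror2 P5 is not shown for Tlr1, Tlr6 and Myd88.

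At P5, *Cd14* rose in the *Vangl2* mutants, 4.26-fold by group means, and no single lung stood apart for this gene. It was at 218, 113 and 166 in controls and at 960.4, 461 and 697 in mutants, so the lowest mutant lung was well clear of the highest control. The log2 difference was 2.07 (SE 0.32, n = 3 and 3, adjusted p = 0.0416). The call was lost without control lung 1, 2 or 3 (adjusted p of 0.0586, 0.138 and 0.0797) or mutant lung 1 or 3 (0.081 and 0.152), and the log2 difference stayed between 1.82 and 2.35 whichever lung was left out.

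*Lbp* and *Tlr2* separated the P5 groups as they had at P2. *Lbp* was at 636, 551 and 649 in controls and at 1365, 978 and 1327 in mutants, a log2 difference of 0.99 (SE 0.17) with an adjusted p of 0.0535. *Tlr2* was at 165, 152 and 149 in controls and at 460.1, 278 and 333 in mutants, a log2 difference of 1.17 (SE 0.22) with an adjusted p of 0.0652. All 3 mutant lungs exceeded every control for both genes, and mutant lung 2 was the lowest mutant for *Cd14*, *Lbp* and *Tlr2* alike. Lungs of the same number deviated together in this comparison. A fit blocked on lung number called 1558 of 17410 genes, against 98 without the block. Its adjusted p was 0.00283 for *Cd14*, 0.00937 for *Lbp* and 0.0184 for *Tlr2*. *Lbp* also passed without mutant lung 2 (0.0463).

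*Myd88* was at 665, 552 and 578 in the P5 controls and at 804, 739 and 851 in the mutants, a log2 difference of 0.42 (SE 0.14, adjusted p = 0.173). *Ly96* was at 31, 27 and 32.2 in controls and at 44, 63.8 and 36.6 in mutants (0.63, SE 0.32, adjusted p = 0.343). Both genes had every mutant lung above every control without passing the test. *Irak3* overlapped at this age, at 125, 163 and 128 against 219, 154 and 217 (0.49, SE 0.23, adjusted p = 0.296), because mutant lung 2 fell among the controls. *Tlr4* ran from 167 to 299.8 in controls and from 240.1 to 306 in mutants, *Tlr1* from 32.8 to 47.4 and from 42.5 to 66.1, and *Tlr6* from 80.3 to 98.7 and from 54.8 to 112.

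Counted over the group, 1 of 9 members passed at P5 by limma, against 0.563% of 17410 genes (0.534% as higher). With the block 3 of 9 passed, and that fit called far more genes over all, 1558 of 17410. As at P2, 4 of 9 had an unadjusted p under 0.05, against 18.8% of genes. For 5 of 9 the groups did not overlap, all higher in mutants, against 13.2% of genes. The median log2 difference was 0.50 for the members and 0.00 for all genes.

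The promoter of *Tlr2* is shown because *Tlr2* separated the groups at both ages and its product signals to NF-kB, and that of *Irak3* because it was called at P2. Upstream sequences of 5 members, *Tlr2*, *Tlr1*, *Tlr6*, *Myd88* and *Irak3*, were matched in the RefSeq table for GRCm38.p6, and the 250 bases before each start were searched on both strands for the NF-kB consensus, the AP-1 motif TGANTCA, the PU.1 core GAGGAA and the C/EBP motif TTGCNNAA. Only bases outside GENCODE exons are printed, read toward the gene, and capitals mark the NF-kB match.
Tlr2, chr3:83841768-83841858, minus strand: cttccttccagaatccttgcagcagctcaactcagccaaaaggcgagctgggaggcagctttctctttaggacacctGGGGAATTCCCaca
Irak3, chr10:120202131-120202380, minus strand: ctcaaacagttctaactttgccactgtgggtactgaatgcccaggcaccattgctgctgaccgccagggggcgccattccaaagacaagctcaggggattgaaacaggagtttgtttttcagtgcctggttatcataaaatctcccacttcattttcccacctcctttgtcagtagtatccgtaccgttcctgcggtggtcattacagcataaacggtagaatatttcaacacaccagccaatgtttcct
The *Tlr2* stretch holds 2 overlapping matches to the NF-kB consensus, which begin 173 and 172 bases before the RefSeq start, and 7.25% of 32851 promoters in the table hold such a match. None of the 4 motifs was found in this *Irak3* window, in a second *Irak3* window or in the *Myd88* window. Of 2 *Tlr1* windows, 1 holds a PU.1 core 23 bases before the start (23.3% of promoters hold one in 250 bases), and 1 of 2 *Tlr6* windows holds a C/EBP motif (9.56%). A match describes the letters and does not show binding.

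The *Ror2* mutants gave no call among the 9 genes at either age. At P2, 0 of 9 passed by limma, edgeR or DESeq2, 0 had an unadjusted p under 0.05, and 0 had groups that did not overlap, against 13.4% of genes higher and 12.2% lower without overlap. No gene of 17541 passed by limma in this comparison (0%), while 3380 (19.3%) had an unadjusted p under 0.05 and on recovered reads DESeq2 called 782 and edgeR 0. *Cd14* was at 169, 243 and 449.9 in controls and at 284, 1023 and 348 in mutants (0.81, SE 0.53, adjusted p = 0.414), and the difference was 0.25 without mutant lung 2.

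Control lung 3 of the P2 *Ror2* comparison was the highest control for all 9 genes. *Lbp* was at 830.2, 929 and 1399 in these controls, *Tlr2* at 158, 173 and 313, and *Tlr1* at 39.2, 31.2 and 102. The mutants lay between for *Lbp* (932, 1011 and 1037), and ran from 189 to 332 for *Tlr2* and from 20 to 41.7 for *Tlr1*. Without that control, the log2 difference was 0.18 for *Lbp* in place of -0.05, 0.53 for *Tlr2* in place of 0.23, and -0.23 for *Tlr1* in place of -0.73, and none passed.

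At P5, *Cd14* was at 424, 142 and 167 in the controls and at 389, 331 and 227 in the *Ror2* mutants (0.51, SE 0.40, adjusted p = 0.513). Control lung 1, which lacks part of the genome, was the highest of all 6 lungs, and without it the log2 difference was 1.00 and still did not pass. *Lbp* was at 692, 764 and 737 in controls and at 1223, 892 and 597 in mutants, which lay on both sides of the controls. Of the 9 members, 0 passed by limma, against 0.128% of 17179 genes, and 0 had an unadjusted p under 0.05, against 18.4%. Only *Tlr1* and *Myd88*, measured against 2 controls, had every mutant above every control, against 15.6% of genes. *Myd88* was at 629.6 and 552 in those controls and at 763, 701 and 653 in mutants (0.26, SE 0.11, adjusted p = 0.277).

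**Figure D2:**
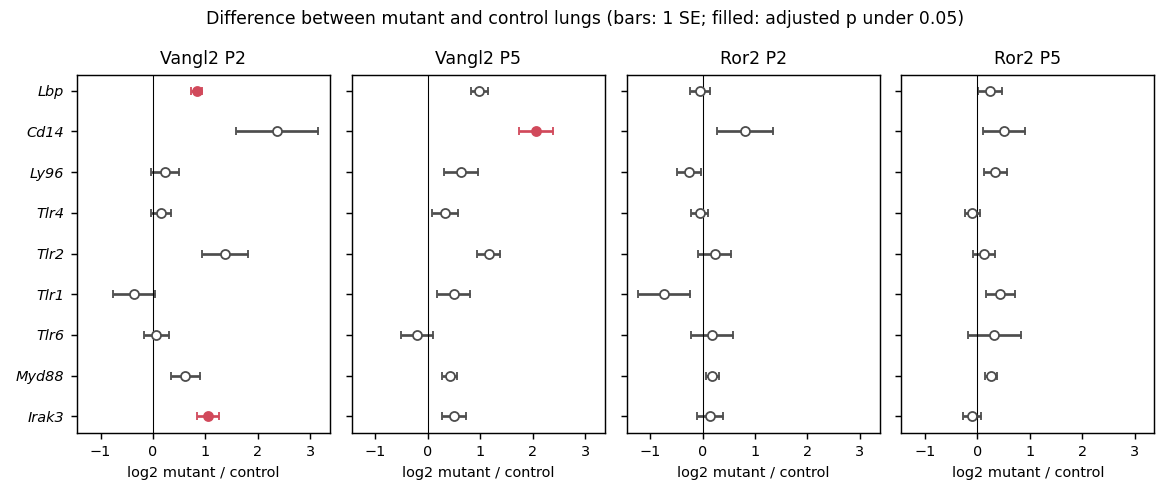
Log2 difference between mutant and control lungs on the log2(normalised count + 1) scale for each gene in the 4 comparisons, with bars of 1 SE from limma and filled red points where the adjusted p was under 0.05. Lbp and Irak3 at P2 and Cd14 at P5 are the filled points, all in Vangl2 mutants, and no point of the Ror2 comparisons is filled.

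Whether the *Vangl2* and *Ror2* differences themselves differ was tested with each mutant against its own controls. At P5 the *Vangl2* difference exceeded the *Ror2* difference by 1.56 for *Cd14* (SE 0.57, adjusted p = 0.941), 1.04 for *Tlr2* (SE 0.31, adjusted p = 0.774), 0.74 for *Lbp* (SE 0.30, adjusted p = 0.991) and 0.60 for *Irak3* (SE 0.27, adjusted p = 0.998) on the log2 scale. These 4 had an unadjusted p under 0.05, against 4.73% of 16887 genes, and none passed the adjustment, which 0.0118% of genes did. At P2 the excess was 0.88 for *Lbp* (SE 0.23, adjusted p = 0.946) and 0.91 for *Irak3* (SE 0.34, adjusted p = 0.946), the 2 members with an unadjusted p under 0.05 against 4.6% of 17137 genes. Thus 0 of 9 members differed between the mutants at either age after adjustment, by limma.

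The same test between ages gave 0 of 9 members by limma in either line, and 0 with an unadjusted p under 0.05, against 8.45% of genes in *Vangl2* lungs and 9.51% in *Ror2* lungs. The *Vangl2* difference of *Cd14* at P5 minus that at P2 was -0.30 (SE 0.95), and it ran from -0.86 to 0.79 when single lungs were left out. For *Lbp* it was 0.15 (SE 0.20), and for *Irak3* -0.56 (SE 0.31, adjusted p = 0.622).

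Levels per kb of exon sequence place the members relative to each other. In the P2 *Vangl2* controls *Myd88* was highest, at 283.5 to 368 normalised counts per kb, followed by *Lbp* at 189 to 198 and *Cd14* at 146 to 168, and these 3 did not overlap each other. *Tlr2* followed at 53.5 to 104, overlapping *Ly96* at 36.1 to 59.5, and *Ly96*, *Tlr4* (35 to 52.7) and *Irak3* (37.4 to 39.2) could not be ordered. *Tlr6* at 14.1 to 20.6 and *Tlr1* at 5.44 to 13.6 were lowest. The order *Myd88*, *Lbp*, *Cd14* held by group mean in the controls of all 4 tables. In the *Vangl2* mutants *Cd14* had the highest mean per kb, at 372 to 3679 at P2 and 266 to 554.5 at P5, overlapping *Myd88* at 353 to 776 and 287 to 330.2. The mean of *Cd14* was also highest in the P2 *Ror2* mutants, at 318 against 317 for *Myd88*, with ranges of 164 to 591 and 291 to 337. In the P5 *Ror2* mutants *Myd88* was highest, at a mean of 274 against 182 for *Cd14*.

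Across the 24 lungs, after each table's mean was removed, *Tlr2* and *Myd88* followed *Cd14* most closely among the members. Pearson's r of log2 values to *Cd14* was 0.94 for *Tlr2* (24 lungs) and 0.92 for *Myd88* (23 lungs), then 0.73 for both *Lbp* and *Irak3*, 0.33 for *Ly96*, 0.25 for *Tlr1*, 0.18 for *Tlr6* and 0.10 for *Tlr4*. Of 16720 genes ranked, the closest to *Cd14* were *Osm* (0.95), *Tlr2*, *Birc3* (0.94), *0610040J01Rik* (0.94), *Zc3h12a* (0.93), *Il1b* (0.92), *Myd88*, *Tnfaip2* (0.91), *Cxcl1* (0.91) and *Steap4* (0.91). *Osm* and *Il1b* encode cytokines, *Cxcl1* a neutrophil-attracting chemokine, and *Birc3* and *Zc3h12a* regulators of inflammatory signalling. The r of each of these 10 genes fell, to between 0.83 and 0.92, when mutant lung 3 of the P2 *Vangl2* comparison was left out, an alternative chosen after its value was seen. *Il1b*, *Tnfaip2*, *Myd88*, *Cxcl1* and *Steap4* then left the closest 10, at ranks of 17, 20, 21, 26 and 29. Without that lung r was 0.78 for *Lbp* and 0.61 for *Irak3*. The lungs share tables, groups and size factors.

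Of 71 other genes of the pathway, those that passed in *Vangl2* mutants were ligands and outputs of the receptors. All 71 were tested in each comparison, and 9 passed at P2 (8 higher, 1 lower, against 3.59% of all genes tested) and 5 at P5 (all higher, against 0.563%), with medians over the list of 0.16 at both ages. Of the 50 receptors, partners, adaptors, kinases, transcription factors and inhibitors, 0 passed by limma at either age, while 15 at P2 and 10 at P5 had an unadjusted p under 0.05, against 22.5% and 18.8% of all genes, so the P5 count was near the background. At P2 edgeR called 0 of these 50 and 669 of 15144 genes, and DESeq2 called 6 of them and 1991 of 19190 genes. At P5 the fit with the block called 5 of the 50 and 1558 of 17410 genes. In *Ror2* mutants 0 of 71 passed by limma at P2 and at P5, with 11 and 14 at an unadjusted p under 0.05, against 19.3% and 18.4% of all genes. At P2 edgeR called 0 of the list, and DESeq2 called 2 of it and 782 of 19256 genes.

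*Saa3*, an acute-phase protein gene induced by LPS, had the largest difference at both ages. It was at 51.6, 59.7 and 29.7 in P2 controls and at 5774, 1033 and 3429.7 in *Vangl2* mutants (log2 5.89, SE 0.58, adjusted p = 0.0248), and at 60.2, 72.9 and 28.2 against 1147, 992 and 841 at P5 (4.28, SE 0.34, adjusted p = 0.0121). *Lcn2*, whose product withholds bacterial siderophores, was at 1638, 1031 and 1037 against 17109, 3036 and 10614 at P2 (2.77, SE 0.56, adjusted p = 0.0411) and at 1399, 801 and 1159.9 against 6069, 5295 and 3829 at P5 (2.19, SE 0.24, adjusted p = 0.0148). Both genes were lowest in mutant lung 2 at P2, and neither was highest in mutant lung 3, where *Cd14* was.

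The other named calls at P2 were *Acod1*, the itaconate-producing enzyme of activated macrophages (2.11, 0 and 3.83 against 66.2, 27.5 and 248, log2 4.98, SE 0.87, adjusted p = 0.0326), the chemokine gene *Ccl3* (3.08, SE 0.66, adjusted p = 0.0476) and *Sftpa1*, which encodes a surfactant collectin that binds bacteria (1.89, SE 0.34, adjusted p = 0.0329). At P5 they were *S100a8* (2.18, SE 0.31, adjusted p = 0.0316) and *S100a9* (2.14, SE 0.33, adjusted p = 0.0422), whose products bind TLR4, and *Il1rn*, the interleukin 1 receptor antagonist (2.04, SE 0.20, adjusted p = 0.0141). *S100a8* (1.51, SE 0.25, adjusted p = 0.0319) and *S100a9* (1.30, SE 0.26, adjusted p = 0.0397) passed at P2 too. They were not among the 5 largest differences called there, and neither was the 1 lower call. That call was an endogenous ligand gene, a class whose log2 differences ran down to -1.50 at P2. Mutant lung 3 at P2 was again extreme for *Cxcl1* and *Il1b*, at 3686 and 2151, with 97.2 and 44.3, and 137 and 234, in the other 2 mutant lungs and controls up to 27.8 and 161. Neither passed there, with adjusted p of 0.203 and 0.324.

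**Figure D3:**
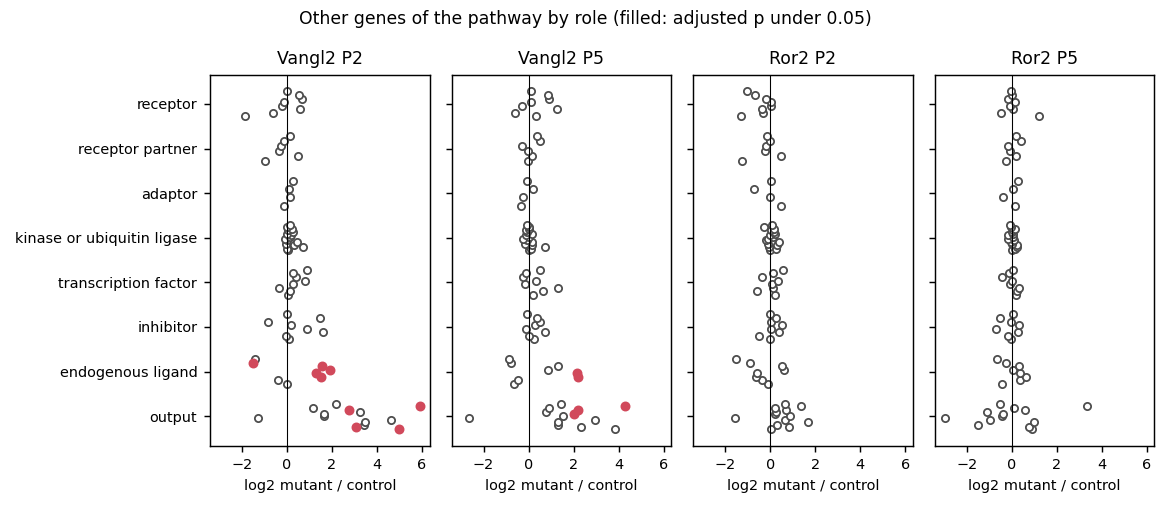
Log2 difference between mutant and control lungs (x axis) of the 71 other pathway genes grouped by role, 1 point a gene, filled red where the adjusted p was under 0.05. Filled points lie only among endogenous ligands and outputs of the Vangl2 comparisons, up to 5.89 for Saa3.

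Markers of the myeloid cells that carry these receptors were higher in the same lungs. The summed count of 12 neutrophil markers ran from 4103 to 6240 in P2 controls and from 11965 to 15308 in P2 *Vangl2* mutants. At P5 it ran from 4072 to 5709 and from 11964 to 27174. Of these 12 markers, 9 passed at P2 and 4 at P5, all higher, against 3.59% and 0.563% of all genes tested. The neutrophil list shares *S100a8* and *S100a9* with the pathway list. *Sftpa1*, called at P2, is likewise both a pathway gene and an alveolar type II marker. The sum of 16 macrophage and monocyte markers ran from 6044 to 7251 in controls against 8180.3 to 10487 in mutants at P2. At P5 it ran from 6169 to 6804 against 10281 to 11126. At P2, 2 of 16 passed and 13 of 16 differences were positive. At P5, 0 of 16 passed by limma and all 16 differences were positive. No marker of either list was at 0 in all lungs. In whole lobes, more cells of a type and more RNA per cell cannot be told apart, and the part of these cells in the *Cd14*, *Tlr2*, *Lbp* and *Irak3* values was not tested.

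At P2, mutant lung 3 had the highest neutrophil sum of its group, 15308 against 11965 and 12896, and its macrophage sum of 8801 lay between 8180.3 and 10487. Neither sum stood apart there as *Cd14* did. In the P2 *Ror2* comparison, control lung 3 had neutrophil and macrophage sums of 31031 and 13070.5, against 5997 and 8540.2, and 7001 and 7021, in the other controls, and it was the control lung in which all 9 members were highest. Other sums separated the *Vangl2* groups as well, with mesenchymal markers lower without overlap (133984 to 151108 in controls against 94001 to 108852 in mutants at P2) and airway epithelial markers higher without overlap (123951 to 154045 against 218457 to 248653 at P2), at P5 as well as at P2. At P5, where *Cd14* was called, the endothelial sum was also lower without overlap (62316 to 72986 against 35031 to 54186), and at P2 the alveolar type I sum was higher (51646 to 63536 against 68392 to 83917) and the erythroid sum lower (41140 to 118726 against 20946 to 35015). Such separations also occurred in *Ror2* lungs, where at P2 the mesenchymal sum was lower and the alveolar type I sum higher without overlap, and at P5 the endothelial sum was lower and the airway epithelial and alveolar type I sums higher. These P5 *Ror2* sums hold only 3 of 5 endothelial, 3 of 4 airway epithelial and 5 of 6 alveolar type I markers. The endothelial gap was narrow, from 30621 in control lung 1 to 30612 in the highest mutant. Beyond the myeloid lists, markers passed by limma only in P2 *Vangl2* mutants, where 3.59% of all genes tested passed. They were 2 of 8 alveolar type II and 1 of 6 alveolar type I markers, all higher, and 1 of 6 mesenchymal and 1 of 3 erythroid markers, both lower. For airway epithelium, endothelium and lymphocytes 0 were called. In P5 *Vangl2* mutant lung 3 the lymphocyte sum was 2355, against 714 and 398 in the other mutants and 416 to 853 in controls.

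**Figure D4:**
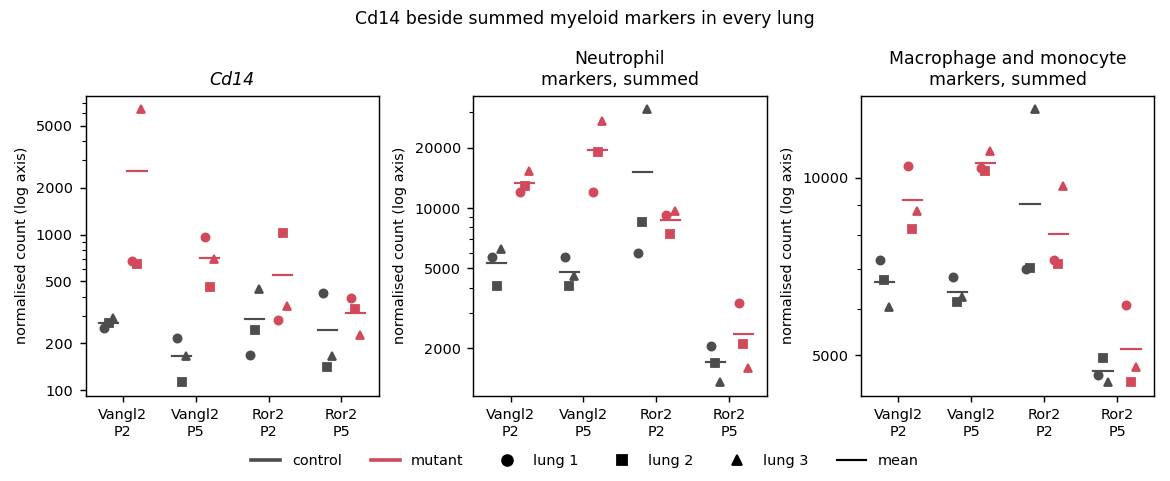
Cd14 (left) beside the summed normalised counts of neutrophil markers (middle) and of macrophage and monocyte markers (right) in every lung, on log axes, with controls in grey, mutants in red, the symbol giving the lung number and a bar at the group mean. Both sums separate the Vangl2 groups at P2 and P5, and control lung 3 of Ror2 P2 has the highest neutrophil sum, 31031. The Ror2 P5 sums hold 8 neutrophil and 12 macrophage markers, those with values in all 6 lungs.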

How the data were processed

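RNA from left lung lobes was extracted and sequenced by the authors. Per the labels, their processing notes name mm10 and DESeq2, while the aligner, counter and annotation are not given in the sources used here. The deposited signal values are reads per gene divided by a size factor of each lung, set within each table of 6 lungs. The authors' own comparison columns (mean, fold change, SE, statistic, p-values) were not used.

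limma 3.58.1 in R 4.3.3 (trend) was fitted to log2(normalised count + 1) for genes that reached a normalised count of 1 in 3 or more lungs of a table. P-values were adjusted by Benjamini-Hochberg over every gene fitted, and 0.05 was the threshold. Fold changes on this scale understate those of low genes. An exact two-sided permutation test of a single gene cannot go below 0.1 with 3 lungs against 3, which all members without overlap at 3 against 3 reached. Differences between comparisons were fitted over 12 lungs. Divided by the smallest value above 0 of the lung, 100% of values were whole within 0.02 in every lung. edgeR 4.0.16 and DESeq2 1.42.0 were run only where reads of all 6 lungs of a table counted as recovered (both P2 tables). Scripts were tested on simulated data. Same-numbered lungs were taken as pairs where all 3 correlations of their deviations exceeded 0.1, which held for the P5 *Vangl2* table (r = 0.38, 0.34 and 0.24), whose blocked values are printed. In the P2 *Ror2* table r was 0.035, 0.21 and 0.12. Of 23275 genes with a known chromosome, 8088 were set to missing in control lung 1 of the P5 *Ror2* table, where 94.6% of expressed genes on these chromosomes were at 0 against 0.0709% elsewhere.

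Members and lists were chosen with earlier results of these data known. All members were named, and of the other pathway genes the called ones, at most 5 a comparison by size of difference, and the 10 genes most like *Cd14*. *Acod1*, *Hbb-bs* and 3 macrophage markers were matched through RefSeq synonyms, and *Ly6g* was not matched.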

Additional observations from a re-analysis of the deposited data

Results flagged for a closer look

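*Il1rn*, the interleukin 1 receptor antagonist gene that NF-kB signalling induces, responded differently in the 2 mutants at P5 and was marked for the test of that difference. It was at 126, 110.5 and 87.7 in the *Vangl2* controls and at 415, 458 and 453 in the *Vangl2* mutants, while it was at 144, 101 and 115 in the *Ror2* controls and at 96.2, 84.6 and 89.7 in the *Ror2* mutants. All *Vangl2* mutant lungs were above and all *Ror2* mutant lungs below their own controls. The *Vangl2* difference exceeded the *Ror2* difference by 2.43 on the log2 scale (SE 0.26, adjusted p = 0.00885 by limma). It passed in 17 of 18 alternatives and missed the threshold without control lung 3 of the P5 *Ror2* comparison (adjusted p = 0.0545). Of the 9 genes of LPS and lipoprotein sensing, none passed this test, *Cd14* included.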

How the results depend on the processing

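With 3 lungs a group, the number of genes called moved widely with the fit, and calls of members moved with it. Members called in the P2 *Vangl2* comparison (2) numbered 0 with all 12 lungs of the age in 1 fit and 0 to 3 when a lung was left out. At P5 (1 called) they numbered 3 with all 12 lungs, 2 with a filter at 10, 3 with the replicate block and 0 to 2 when a lung was left out. In both *Ror2* comparisons and in the 4 tests of differences, 0 members passed under every alternative run. Pathway genes called at P2 in *Vangl2* lungs (9) numbered 19 with DESeq2, 3 with 12 lungs and 0 to 21 when a lung was left out, and at P5 (5) they numbered 13, 19 with the block and 0 to 3. In *Ror2* lungs, where 0 passed, DESeq2 called 2 at P2, and leaving out a lung gave 0 to 1 at P2 and 0 to 3 at P5.

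Over all genes, the 626 calls of *Vangl2* P2 became 1991 with DESeq2, 50 with 12 lungs and 1 to 2333 when a lung was left out. The 98 of *Vangl2* P5 became 1007 with 12 lungs, 1558 with the block pairing and 0 to 54. The 0 of *Ror2* P2 became 782 with DESeq2, 1 with the block and 0 to 859, and the 22 of *Ror2* P5 became 3 with 12 lungs, 1 with control lung 1 kept as deposited, 1 with the block and 0 to 823. The cause was not tested.

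Of the members' single values under the alternatives, 477 kept direction and side of the threshold, 15 lost the call, 9 gained it and 12 changed sign, all 12 on leaving out a lung. Those 12 ranged over -0.030 to 0.265 (*Tlr4*) and -0.079 to 0.19 (*Tlr6*) in *Vangl2* P2, -0.46 to 0.050 (*Tlr6*) in *Vangl2* P5, -0.20 to 0.18 (*Lbp*), -0.16 to 0.089 (*Tlr4*), -0.0071 to 0.53 (*Tlr2*), -0.27 to 0.52 (*Tlr6*) and -0.010 to 0.38 (*Irak3*) in *Ror2* P2, and -0.0012 to 0.52 (*Lbp*), -0.17 to 0.027 (*Tlr4*), -0.019 to 0.32 (*Tlr2*) and -0.24 to 0.89 (*Tlr6*) in *Ror2* P5. The replicate block was also tried where lung numbers did not pair (all but *Vangl2* P5): it added *Tlr2* in *Vangl2* P2 (adjusted p = 0.0274) and changed no other member's call there. DESeq2 gave no adjusted p for *Cd14* in *Vangl2* P2. Count tests were not run at P5, where the size factors of 3 control lungs lie within about 1% of 1 and reads could not be recovered. Reads of *Tlr1* and *Tlr6* are few and partly shared, which limits both.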
